A study of Neocallimastix californiae and Anaeromyces robustus with 43 samples.

Results

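The comparison described here is that of cellobiose with maltose as the carbon source of Anaeromyces robustus, an anaerobic fungus of the herbivore gut whose strain is labelled S4. Its members are the 6 messenger RNA libraries that the labels give to A. robustus on Cellobiose (3 libraries) and on Maltose (3 libraries), out of 20 libraries of this fungus and 43 in the series. All were whole cultures in about 10 ml of Medium C at 39 °C, taken in mid-logarithmic growth at a gas pressure of at least 5 psi, so the groups share medium, temperature and growth phase and differ in the sugar. The labels name no mutation or added drug, and they do not say whether replicates came from separate cultures, so the p-values cover the spread among these libraries only, and part of it may be technical. The other libraries of the fungus came from Glucose, Avicel (a microcrystalline cellulose) and the grasses Switchgrass, Corn Stover and Reed Canary Grass. Their levels do not enter the cellobiose and maltose means, but they share the model's filter, scaling and estimate of spread.

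Maltose and cellobiose are both disaccharides of glucose. Maltose carries the alpha linkage of starch and cellobiose the beta linkage of cellulose, so they are split by different enzymes, alpha-glucosidases and beta-glucosidases, into the same sugar. Cellobiose is also the main soluble product of cellulases, and in some other fungi it can induce cellulase genes under some conditions. Anaerobic gut fungi break down plant cell walls with many secreted enzymes, part of them assembled into cellulosomes, and ferment the sugars without oxygen, partly in hydrogenosomes. The transcript identifiers are not paired with gene names or functions in the files used here, so no transcript below is given a function and no pathway could be followed.

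The third maltose library stood apart from all others. It held 1946186 expected counts, against 11125041 and 14215343 in maltose replicates 1 and 2 and 17851948, 13270781 and 15383505 in cellobiose replicates 1, 2 and 3. A single transcript, Locus13069v1rpkm0.51, took 42.5% of its counts but 0.237% and 0.177% in the other maltose libraries and between 0.0526% and 0.145% on cellobiose. Its 10 most abundant transcripts together took 64.5%, against 6.00% and 6.26% in maltose replicates 1 and 2. Its rank correlation over transcripts with the other maltose libraries was 0.652 and 0.656, while those 2 libraries correlated at 0.948 and the cellobiose libraries at 0.961 to 0.983 among themselves. One read in it was worth 2.99 CPM, counts per 1000000 after TMM scaling, and 1194 transcripts had at least 10 counts in it. The calls and their main counts are therefore given with and without maltose replicate 3, and "both fits" below means a model of all 20 libraries and a model of the 19 that remain without it.

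More transcripts were detected in every cellobiose library than in any maltose library. Cellobiose libraries had 13180, 11976 and 12653 transcripts with at least 1 count, and maltose libraries had 9598, 10032 and 2951. Thinned to the depth of the shallowest library, 1946183 counts, the numbers were 10451, 9452 and 10099 on cellobiose and 7215, 7382 and 2951 on maltose. All cellobiose libraries thus lay above all maltose libraries at equal depth. The number of transcripts that together hold 50% of the counts was 131, 104 and 128 on cellobiose and 59, 61 and 3 on maltose. The exact two-sided permutation test gave p = 0.1 for each of these 3 measures, the smallest p that 3 against 3 libraries allow, and p = 0.2, again the smallest possible, without maltose replicate 3. In the 14 other libraries the transcripts that hold 50% of the counts numbered 69 to 79 on glucose, 54 to 87 on Avicel and 95 to 119 on the 3 grasses.

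More transcripts rose than fell on cellobiose. With all libraries 2784 transcripts were called higher and 987 lower than on maltose by edgeR's quasi-likelihood test at a Benjamini-Hochberg adjusted p under 0.05, which is 27.0% and 9.57% of the 10316 tested and 36.6% in all. Without maltose replicate 3 the test called 2673 higher (25.9%) and 1278 lower (12.4%), 38.3% of 10314. In both fits 2605 transcripts were higher (25.3% of the 10297 tested in both) and 909 were lower (8.83%), and 0 were called in opposite directions, with 4790 and 4942 transcripts at an unadjusted p under 0.05. These 2605 and 909 are called the higher and the lower transcripts below. Leaving out maltose replicate 1 or 2 from the model of all libraries left 2512 and 2425 calls, and from the model without replicate 3 it left 2186 and 2075, with 1 maltose library remaining that is assumed to vary like the other groups.

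**Figure D1:**
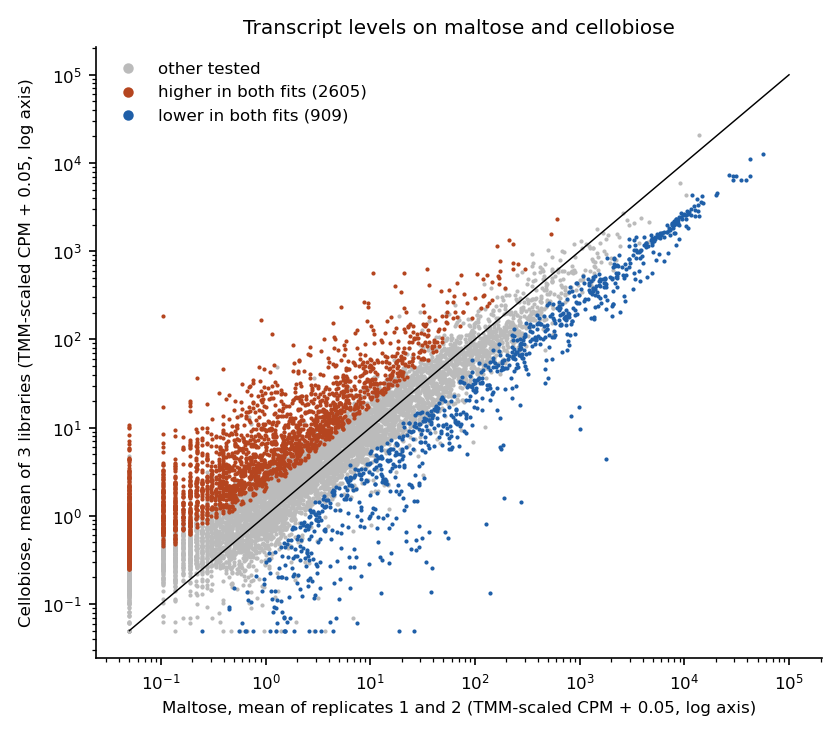
Mean level of each tested transcript on maltose (replicates 1 and 2, x axis) and on cellobiose (3 libraries, y axis), both in TMM-scaled CPM plus 0.05 on log axes, with the line of equality. The 2605 higher transcripts (red) lie above the line mostly at low and middle levels, and the 909 lower transcripts (blue) lie below it up to the most abundant; with library size alone as the scale, 337 of the 909 have the opposite sign with all libraries.

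How the libraries were scaled bears on the direction of the abundant transcripts. TMM, a scaling that leaves out the most extreme transcripts and takes the rest as equal on average between libraries, gave factors of 0.524, 0.630 and 0.178 to the maltose libraries and 1.81, 1.28 and 1.74 to the cellobiose libraries. The median log2 fold change of all tested transcripts was 0.67 with TMM and 2.33 with library size alone (0.57 and 2.04 without maltose replicate 3). With library size alone, 7296 transcripts were called higher (70.7%) and 189 lower (1.83%) with all libraries. All 2605 higher transcripts had the same sign under each other scaling, filter and model compared (replicates left out aside), wherever they were tested. Of the 909 lower transcripts, library size alone left 572 with a lower level (168 of them called) and turned 337 to a higher one (0 called), and without maltose replicate 3 it left 742 lower (274 called) and turned 167 (0 called). With DESeq2 size factors in place of TMM, all 909 were lower, 784 of them called with all libraries and 909 without maltose replicate 3. Tested by limma on log2(TPM + 1), which changes unit and test together, where 0.863% of all tested transcripts were called lower and 83.6% higher, 251 of the 909 were lower (83 called) and 658 higher (76 called). Without replicate 3 these numbers were 647 (190 called) and 262 (3 called), with 1.86% and 70.9% of all tested called lower and higher.

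The higher transcripts were at very low levels on maltose and at low or middle levels on cellobiose. Their median level was 3.71 CPM on cellobiose and 0.540 CPM in maltose replicates 1 and 2, and their median log2 fold change was 2.91, with quartiles of 1.92 and 4.57 (median 2.86 without maltose replicate 3). Set at their lower bound where maltose had no count, the median was 2.30. The fitted change was at least 2-fold in 2591 of the 2605 and at least 8-fold in 1256, which counts transcripts with no maltose reads at their fitted values. The cellobiose libraries did not overlap the 3 maltose libraries in 2565 of the 2605 (98.5%), where 44.0% of all tested transcripts lay above without overlap. They did not overlap maltose replicates 1 and 2 in 2600, where that share was 45.6%. These libraries chose the transcripts, and 2315 of the 2605 had no read in maltose replicate 3, so this separation is only a description. Their median effective length relative to the typical transcript, from the ratio of expected count to TPM, was 1.04, close to the 0.927 of all tested transcripts.

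Among the higher transcripts, 471 had no read in any maltose library and at least 1 in every cellobiose library. Their mean level on cellobiose ran from 0.197 to 10.7 CPM, with a median of 0.608 CPM. The fold over a floor of 3 counts in the 3 maltose libraries together ran from 0.991 to 54.1, with a median of 3.06. The lowest value is thus no rise over that floor. Of these 471 transcripts, 445 had at least 1 read on glucose and 159 had reads in all 3 glucose libraries. In the grass libraries 458 of them had reads in every one of the 8. The filter counted reads from every carbon source, so transcripts this low on cellobiose could be tested through their grass reads. No share over all tested transcripts was taken for these counts, so they only describe the 471. Most of these transcripts, unread on maltose, had some reads on glucose. A count of 0 on maltose allows up to 0.515 CPM in replicate 1, 0.335 CPM in replicate 2 and 8.96 CPM in replicate 3.

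The transcript with the largest rise among those that reached 10 CPM without overlap was Locus383v1rpkm347.85. Its levels were 274, 128 and 155 CPM in cellobiose replicates 1, 2 and 3, and 0, 0.112 and 0 CPM on maltose, where 1 read was counted in all. It rose by 11.34 ± 1.03 on the log2 scale (SE; edgeR adjusted p = 1.3e-06), and by 11.31 ± 1.09 without maltose replicate 3 (adjusted p = 1.37e-05). The ratio of scaled counts was 3023, with an exact 95% interval of 542.5 to 119413 that covers counting error only. It was highest on cellobiose among all 7 carbon sources, with 16.4 ± 6.55 CPM on Avicel (SD, n = 3), 12.9 ± 4.54 on switchgrass, 10.4 ± 2.73 on reed canary grass, 7.19 ± 1.60 on corn stover (n = 2) and 0.378 ± 0.518 on glucose. The cellobiose libraries overlapped none of these groups, while Avicel, switchgrass and reed canary grass overlapped in their ranges and corn stover lay just below them.

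Locus1730v1rpkm38.79, the next in the order of rise, had no read on maltose. It stood at 12.2, 9.34 and 10.7 CPM in the cellobiose libraries, a mean of 10.7 ± 1.41 CPM (SD, n = 3). That is at least 54.1-fold higher than maltose against 3 counts over the 3 maltose libraries, and at least 52.9-fold against 3 counts over replicates 1 and 2 (edgeR adjusted p = 7.42e-05 and 0.000211). Avicel libraries reached 6.75 to 12.05 CPM and overlapped the cellobiose libraries, grass libraries had 1.46 to 4.93 CPM, and on glucose the only reads were 6 in replicate 3. Both transcripts are the only version of their locus, and both were called under each alternative tried.

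The lower transcripts were fewer and held most of the reads on maltose. Their median level was 75.8 CPM in maltose replicates 1 and 2 and 15.6 CPM on cellobiose, and their median log2 fold change was -1.96, with quartiles of -2.77 and -1.48 (median -2.00 without maltose replicate 3), on the TMM scale whose effect on direction is given above. At least 2-fold lower were 882 of the 909, and at least 8-fold lower 197. The cellobiose libraries lay below all 3 maltose libraries without overlap in 571 (62.8%), where 7.32% of all tested transcripts did, and below maltose replicates 1 and 2 in 898, where 21.7% did. As a share of counts, with no TMM scaling, 743 of the 909 were smaller on cellobiose than in maltose replicates 1 and 2, 517 of them without overlap, and 166 were larger, 32 without overlap. These libraries chose the transcripts, so the counts of overlap and of direction are a description. For the direction by share of counts, no share over all tested transcripts was taken. Their median relative effective length was 0.625, shorter than that of all tested transcripts.

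Only 17 of the lower transcripts had no read on cellobiose, and the 2 largest falls by the same rule are among them. Locus11778v1rpkm0.71 stood at 35.5, 2.12 and 20.9 CPM in maltose replicates 1, 2 and 3, the last from 7 reads, and had no read on cellobiose or Avicel. It was at least 495-fold lower on cellobiose, against 3 counts over the 3 cellobiose libraries (edgeR adjusted p = 0.000348, and at least 477-fold with adjusted p = 0.000318 without maltose replicate 3). Glucose libraries had 3.84 to 11.7 CPM and grass libraries at most 0.704 CPM, so the reads of this transcript came mainly from glucose and maltose. Maltose replicate 1 held 207 of its 233 maltose reads.

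Locus7154v14rpkm0.12_PRE stood at 25.04, 27.0 and 14.9 CPM on maltose, the last from 5 reads, and had no read on cellobiose. It was at least 566-fold lower on cellobiose (edgeR adjusted p = 0.0291, and at least 660-fold with adjusted p = 0.0161 without maltose replicate 3). It is 1 of 15 versions of its locus, between which reads are divided by estimate. The whole locus had 4369, 2600 and 3587 counts on cellobiose and 1553, 1727 and 55 on maltose, and summed over its versions it was not called, with a log2 fold change of -0.60 with all libraries and -0.83 without maltose replicate 3. The value of this single version is therefore uncertain.

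**Figure D2:**
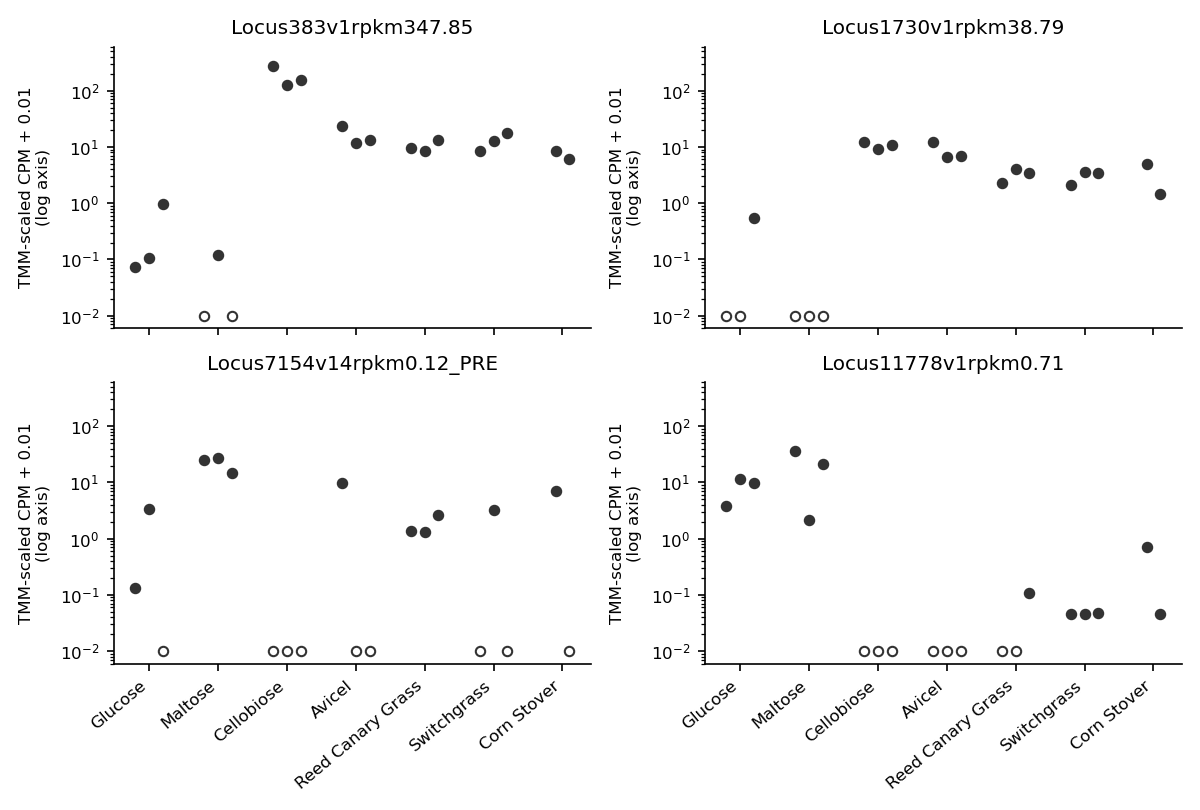
Level of the 4 named transcripts in each A. robustus library, in TMM-scaled CPM plus 0.01 on a log axis, by carbon source; open circles are libraries with no read. The upper 2 transcripts are above 9 CPM in every cellobiose library and at or near 0 on maltose, and the lower 2 have no read on cellobiose.

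The falls on cellobiose were concentrated in the most abundant transcripts, where the rises were fewest. Transcripts were ranked per length, by mean TPM over the 14 libraries outside the comparison, and divided into 10 classes of equal size. In the top class 394 of 1030 transcripts (38.3%) were lower on cellobiose and 126 (12.2%) higher. In the 8 classes below the top 2, between 31 and 74 transcripts were lower and between 175 and 336 higher. Ranked instead by mean CPM over all libraries, the top class held 381 lower (37.0%) and 86 higher transcripts. These lower counts rest on TMM scaling. Of the 100 most abundant transcripts by TPM, 89 were lower and 0 higher in both fits (background 8.83% and 25.3%). With library size alone 10 were called lower and 5 higher with all libraries (background 1.83% and 70.7%), and 31 lower and 4 higher without maltose replicate 3 (2.68% and 64.9%). The pattern was not particular to this comparison. In the top class by CPM, 28.6%, 40.1% and 25.8% were called lower on reed canary grass, switchgrass and corn stover than on glucose. Higher calls there were 13.2%, 10.1% and 11.5%. For each grass these were the largest lower share and the smallest higher share of the 10 classes, from the same TMM-scaled model.

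**Figure D3:**
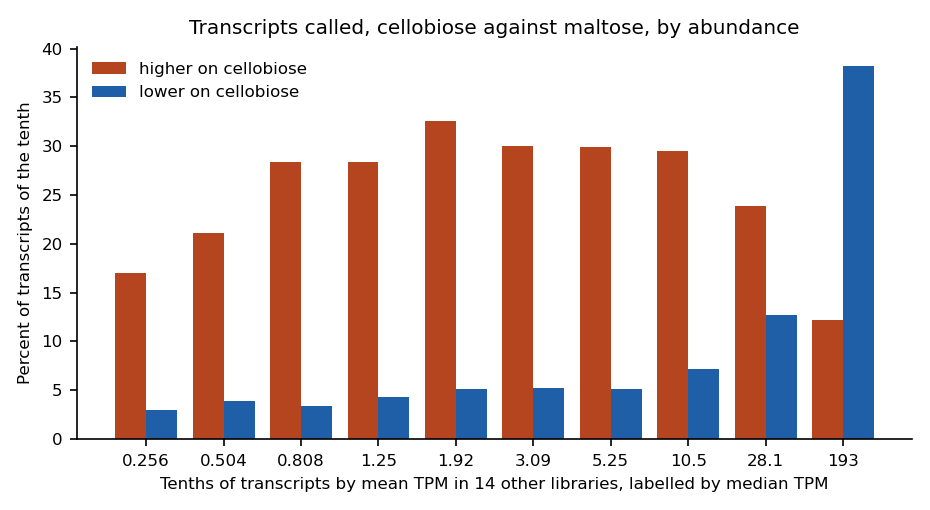
Percent of tested transcripts higher (red) or lower (blue) on cellobiose in both fits, in 10 classes by mean TPM over 14 libraries outside the comparison, from the least abundant (left) to the most abundant (right). Lower transcripts make up 38.3% of the top class and higher ones 12.2%; scaled by library size alone, the lower calls over all transcripts number 189.

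On the authors' TPM scale, the 100 most abundant transcripts held 58.3% to 65.1% of maltose replicates 1 and 2 and 70.4% of replicate 3, and 48.8% to 53.7% of the cellobiose libraries. Of the 100, 90 had a lower mean TPM on cellobiose than in maltose replicates 1 and 2. Without overlap 58 were lower and 7 higher, and no share over all tested transcripts was taken for these counts. The transcript that led all others on cellobiose, both by counts and by TPM, was among those with larger shares. It held 3.12%, 3.71% and 2.89% of the counts on cellobiose and 0.531%, 1.10% and 0.125% on maltose. In maltose replicates 1 and 2 it ranked 14 by share of counts and 88 by mean TPM. On the TMM scale its log2 fold change was 0.85 ± 0.45 (SE, edgeR adjusted p = 0.145, and 0.60 ± 0.51 with adjusted p = 0.366 without maltose replicate 3), so it was not called, while with library size alone it was 2.46 (adjusted p = 0.000133). Of the 20 transcripts with most counts on cellobiose, 17 were lower on the TMM scale in both fits (background 8.83%). The other 3 were not called in both. With library size alone and all libraries, 1 of the 17 was called lower (background 1.83%), and 16 had a negative and 1 a positive log2 fold change. Without maltose replicate 3, 10 were called lower (background 2.68%) and all 17 were negative. With DESeq2 size factors all 17 were called lower in both cases, as were 852 of the 10316 and 1585 of the 10314 tested. The compared cellobiose libraries chose these 20, so the counts are a description.

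Higher transcripts took a larger part of the messenger RNA reads on cellobiose, and lower ones a smaller part. The 2605 higher transcripts held 10.3%, 8.08% and 9.56% of the counts in the cellobiose libraries and 0.682%, 0.918% and 0.113% in the maltose libraries. The 909 lower transcripts held 50.5%, 56.4% and 51.9% on cellobiose and 83.5%, 78.4% and 92.1% on maltose. These libraries chose the transcripts, so the separation is a description. In bulk RNA, less of a transcript per cell and fewer cells that make it cannot be told apart.

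Libraries outside the comparison fell on both sides of it. On glucose the higher transcripts held 1.56% to 1.99% of counts, above maltose and below cellobiose, and on the 8 grass libraries 9.56% to 13.4%, with a mean of 12.02% ± 1.38 (SD, n = 8) that exceeded the 9.31% ± 1.13 (SD, n = 3) of cellobiose. Avicel replicates 2 and 3 stood at 4.19% and 4.16%, and replicate 1, which has the lowest TMM factor outside maltose (0.273), at 1.98%. The lower transcripts held 74.8% to 78.4% on glucose, 78.0%, 64.9% and 65.2% on Avicel and 51.1% to 59.7% on the grasses. By these shares the grass libraries lay near cellobiose and the glucose libraries nearer to maltose. Avicel replicates 2 and 3 lay between them, and Avicel replicate 1 lay within the range of glucose.

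**Figure D4:**
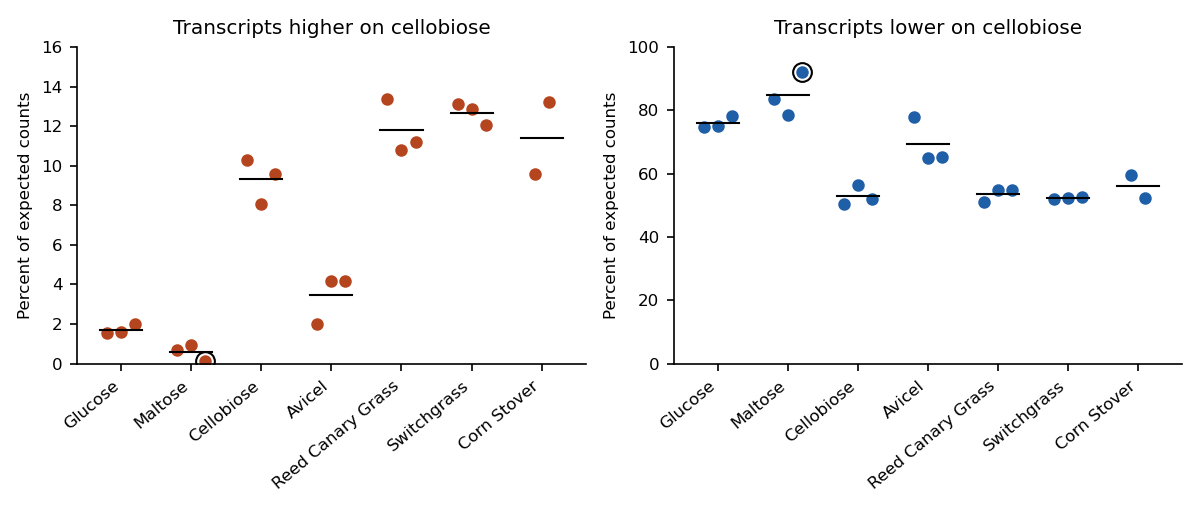
Percent of the expected counts of each A. robustus library held by the 2605 transcripts higher (left) and the 909 lower (right) on cellobiose, by carbon source; points are libraries, lines are group means, and the ringed point is maltose replicate 3. Cellobiose lies at 8.08% to 10.3% and 50.5% to 56.4%, and the grasses at 9.56% to 13.4% and 51.1% to 59.7%; shares of counts use no TMM scaling.

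Contrasts of the grasses with glucose called many of these transcripts in the same direction. They use no cellobiose or maltose library for their means. The model, with its filter, scaling and spread per transcript, is the same, so these calls are not independent of those above. Of the 2605 higher transcripts, edgeR's test called 1880 (72.2%) higher on switchgrass than on glucose, where 27.0% of all tested were, 1746 (67.0%) on reed canary grass, where 25.2% were, and 1629 (62.5%) on corn stover, where 23.1% were. Lower calls among them were 18, 40 and 35. Of the 909 lower transcripts, 673 (74.0%) were called lower on switchgrass, 577 (63.5%) on reed canary grass and 506 (55.7%) on corn stover, where 15.0%, 16.2% and 13.0% of all tested were, and 5, 10 and 11 were called higher. The median log2 fold change was 2.17, 2.02 and 2.00 for the higher transcripts and -1.81, -1.45 and -1.44 for the lower ones on switchgrass, reed canary grass and corn stover, against 0.15, 0.05 and 0.05 for all tested. Without maltose replicate 3 in the model, 1950, 1796 and 1697 of the higher transcripts were called higher on switchgrass, reed canary grass and corn stover, where 28.6%, 26.8% and 24.9% of all tested were, and 699, 626 and 571 of the lower ones were called lower, where 18.2%, 19.4% and 16.9% were. With library size alone the lower calls among the 909 were 254, 252 and 184, where 2.89%, 3.96% and 2.66% of all tested were called lower.

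Avicel, the crystalline polymer of the cellobiose unit, had fewer of these transcripts called against glucose. Of the higher transcripts 433 (16.6%) were called higher on Avicel than on glucose, where 10.8% of all tested were, and 136 lower, and of the lower transcripts 248 (27.3%) were called lower, where 14.3% of all tested were, and 94 higher. Without maltose replicate 3 in the model the 4 numbers were 493 (background 13.3%), 168, 277 (background 17.0%) and 118. Without Avicel replicate 1 they were 454 (background 9.34%), 96, 265 (background 13.0%) and 42. With library size alone the calls among the higher transcripts were 181 higher and 172 lower, where 3.52% and 15.6% of all tested were. The median log2 fold change of the higher transcripts was 0.08 and that of the lower ones -0.09, against -0.23 for all tested. Without Avicel replicate 1 these medians were 0.18, -0.32 and -0.24, so the place of the lower transcripts against all tested depends on that library.

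Measured against the midpoint between the cellobiose and maltose means of each transcript on the log2(CPM + 0.5) scale, 2498 of the 2605 higher transcripts were on the cellobiose side on switchgrass, 2471 on reed canary grass and 2443 on corn stover. On Avicel 1208 were, and on glucose 958, or 622 with the midpoint from maltose replicates 1 and 2. Of the 909 lower transcripts 828, 799 and 786 were on the cellobiose side on the 3 grasses, 350 on Avicel and 121 on glucose. With the midpoint from maltose replicates 1 and 2, the higher transcripts on the cellobiose side numbered 2450 on switchgrass, 2398 on reed canary grass, 2324 on corn stover and 974 on Avicel, and the lower ones 877, 856, 849 and 429, and 158 on glucose. Without Avicel replicate 1 the Avicel counts were 1355 higher and 409 lower transcripts, or 1145 and 459 with the midpoint from maltose replicates 1 and 2. On glucose most transcripts of both kinds were thus on the maltose side. The midpoints rest on TMM-scaled CPM and on the libraries that chose the transcripts. No share over all tested transcripts was taken, so these counts are a description.

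Each sugar was also set beside glucose, in contrasts that share libraries with the comparison. Cellobiose against glucose called 1666 transcripts higher (16.1%) and 753 lower (7.3%), and without maltose replicate 3 in the model 1860 (18.0%) and 1097 (10.6%). With library size alone it called 2839 higher (27.5%) and 182 lower (1.76%). Maltose against glucose called 0 higher and 1 lower (0.0% and 0.00969%) by edgeR's test, with 1912 transcripts at an unadjusted p under 0.05, and DESeq2 called 179 higher and 442 lower. Without maltose replicate 3 edgeR again called 0 higher and 1 lower, and 1759 transcripts had an unadjusted p below 0.05. The median log2 fold change of the higher transcripts was 1.55 for cellobiose against glucose and -1.31 for maltose against glucose, and that of the lower transcripts was -1.35 and 0.53. For all tested transcripts these medians were 0.16 and -0.46. The higher and lower transcripts were chosen by the difference between these cellobiose and maltose libraries. The distance between their 2 medians therefore follows from that choice, and the medians are a description.

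**Figure D5:**
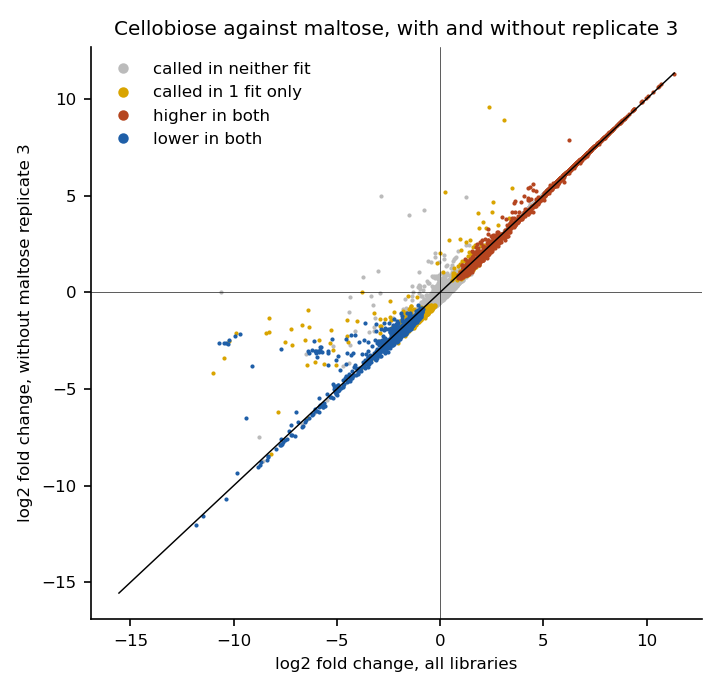
Log2 fold change of each transcript on cellobiose against maltose with all libraries (x axis) and without maltose replicate 3 (y axis), both TMM scaled, with the line of equality. Higher transcripts (red) lie along the line, and a group of lower transcripts (blue) with strongly negative values on the x axis has smaller changes on the y axis; under library size alone 337 of the 909 lower transcripts have the opposite sign.

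Maltose replicate 3 acted mainly on the size of some falls and on which falls were called. It added 179 higher and 78 lower calls that were absent without it, and 68 higher and 369 lower calls appeared only without it. Of its 10 most abundant transcripts, 9 are among the 909 lower ones, and Locus13069v1rpkm0.51 had a log2 fold change of -10.45 with it (edgeR adjusted p = 0.00404) and -2.63 without it (adjusted p = 0.0123). Of the 2605 higher transcripts 2315 had no read in it, and of the 909 lower ones 239 had none. For transcripts chosen without it and expected to have at least 3 reads in it at the cellobiose level, it lay below the cellobiose mean for 821 of 834 higher ones (98.4%), where 79.2% of all tested transcripts did. It lay above the cellobiose mean for 61.8% of 808 lower ones, where 20.8% of all tested did. The cellobiose libraries behind this mean also chose both lists, so part of the separation follows from the choice and it is a description.

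Among the 497 loci with more than 1 tested version, 81 had at least 2 versions called in both fits, and in 77 of these all called versions moved in 1 direction. Versions of a locus share reads, so they do not count as separate observations. Summed per locus, the counts gave 2381 higher and 901 lower loci in both fits. Transcripts were also ranked by mean share of counts over the 19 libraries without maltose replicate 3. This ranking includes compared libraries, so its counts are a description. Of the top 100, 2 were higher on cellobiose in both fits and 90 lower on the TMM scale (background 25.3% and 8.83%). With library size alone 6 of these 100 were called higher and 5 lower (background 70.7% and 1.83%). Without maltose replicate 3 these were 6 and 27 (background 64.9% and 2.68%). DESeq2 without maltose replicate 3 called 2 higher and 62 lower, and 2235 and 1643 of the 10314 tested. The one at rank 81 held 0.469%, 0.286% and 0.386% of the counts on cellobiose, 0.0241%, 0.0472% and 0.0073% on maltose, 0.0144% to 0.0405% on glucose and 0.317% to 0.537% on the grasses. It rose by 2.11 ± 0.47 on the log2 scale (SE, edgeR adjusted p = 0.00183, and by 1.96 ± 0.54 with adjusted p = 0.00989 without maltose replicate 3). The one at rank 99 rose by 2.59 ± 0.57 (adjusted p = 0.00164), and by 2.67 ± 0.69 without maltose replicate 3 (adjusted p = 0.00682).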

How the data were processed

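The authors deposited 1 table of expected counts and 1 of TPM for A. robustus, with 17127 transcripts and 20 libraries; library preparation used an Illumina TruSeq Stranded mRNA protocol, per the labels' protocols. Expected counts are RSEM estimates, per the submitters' processing notes, and 10.4% were not whole (tolerance 1e-09). The sources used here give no aligner, reference or RSEM version. The deposited TPM are the authors' length-corrected values. Columns were matched to samples by the labels, and the total count per library ran from 1946186 to 31742828.

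Expected counts were rounded, filtered (edgeR 4.0.16 filterByExpr, minimum count 10, total 15; 99.9% of counts kept), TMM scaled and tested by the quasi-likelihood test in R 4.3.3, with 1 mean per carbon source over 20 libraries, or 19 without maltose replicate 3, and Benjamini-Hochberg adjustment over all transcripts tested. Standard errors are the log2 fold change divided by the square root of F. DESeq2 1.42.0, limma 3.58.1 (voom with sample quality weights; log2(TPM + 1) with trend) and other scalings, filters and sample choices were alternatives. The code was tested on simulated data.

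No pair of replicates agreed within sampling noise (chi-square per degree of freedom of at least 20.5). Same-numbered libraries did not deviate together, so numbers were not used as pairs. Transcripts were named by a rule: among those called in both fits, with at least 10 CPM in the higher group and no overlap (735 higher, 525 lower), the 2 with the largest log2 fold change each way, and the most abundant transcript of maltose replicate 3. Identifiers have no gene names in the files, so others are described by rank or count. The members, lists and tests were chosen with earlier results of these data known. Relative effective length needed at least 20 counts.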

Additional observations from a re-analysis of the deposited data

How the results depend on the processing

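The counts of calls of cellobiose against maltose moved by over 1.5 times under library size alone, under limma on log2(TPM + 1), which changes unit and test together, and without maltose replicate 1 or 2; DESeq2 size factors in place of TMM gave 4958 calls (3801 without maltose replicate 3). With all libraries library size alone gave 7485 calls (7296 higher, 189 lower) and log2(TPM + 1) 8713 (8624 higher, 89 lower), without maltose replicate 3 they gave 6969 (6693, 276) and 7501 (7309, 192), and in both fits 6760 and 7367. Leaving out 1 of the compared libraries gave 2425 to 3951 calls with all libraries, 2075 to 3820 without maltose replicate 3 and 1674 to 3346 in both fits, the lowest without maltose replicate 2 and the next without replicate 1 (1827 in both fits). The share called higher was 73.8% in the main fit with all libraries and 67.7% without maltose replicate 3. It moved by over 10 percentage points with library size alone (97.5% and 96.0%) and with log2(TPM + 1) (99.0% and 97.4%). It also did so with voom and sample quality weights (3130 higher, 1776 lower, all libraries) and with DESeq2 without maltose replicate 3 (2235, 1643). The same held without maltose replicates 2 and 3, where 1 maltose library remained. The replicate block gave 3416 calls (3531 without maltose replicate 3, 3096 in both fits); deviations of same-numbered maltose and cellobiose libraries correlated at 0.0245, -0.0851 and -0.149, so the numbers do not pair the samples. Maltose against glucose went from 1 call to 621 with DESeq2, 585 with library size alone and 2 with the block. Among the called transcripts, library size alone gave 181 higher calls on Avicel and 252, 254 and 184 lower calls on reed canary grass, switchgrass and corn stover, and the glucose midpoint count was 622 without maltose replicate 3. As percent of TPM, the higher and lower transcripts held 5.46% and 61.7% on cellobiose. The causes were not tested. Locus7154v14rpkm0.12_PRE lost its call under 8 of 19 alternatives with all libraries and 3 of 17 without maltose replicate 3, and Locus11778v1rpkm0.71 only with the 2 compared groups alone in the fit (edgeR adjusted p = 0.0898 and 0.142); none of these 2 or the 2 named rises reversed. Chosen after seeing the data were the settings without Avicel replicate 1 (4422 calls, 4825 without maltose replicate 3, 4221 in both fits), without the 10 most abundant transcripts of maltose replicate 3 (3753 and 3944), the counts in both fits under each alternative, and the ranking by TPM. Low reads in maltose replicate 3 limit it to transcripts above about 8.96 CPM.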
